A study of Homo sapiens with 6 samples.

Results

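The proteasome subunit genes described here are 35 of the 25702 gene identifiers counted in K562, a long-established line grown from the cells of a chronic myeloid leukaemia. They were chosen by name: every counted row whose NCBI Gene identifier belongs to 1 of 35 listed subunit and activator symbols. No measured value entered that rule, but the list was drawn up with earlier results of these data known. All 35 were found and all 35 passed the filter on low counts. The cells had been transfected by nucleofection with the pCMV-HA expression plasmid, left empty (EV) or carrying MXD3 or the STIM1::MXD3 fusion, with 2 libraries per plasmid and 6 in all. Every group, controls included, was the same cell line with the same HA-tag backbone, and the labels name no other treatment. The CMV promoter of the plasmid is a strong viral promoter, and expression from such a plasmid is transient. Each library was made from the bulk culture, with no selection of carrying cells described, so fewer responding cells and a smaller response per cell cannot be told apart. Nothing in the labels says whether replicates 1 and 2 were separate cultures, and the study describes them as independent transfections.

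The proteasome is the main protease of the cytosol and nucleus and degrades proteins marked with ubiquitin. Its core particle is a barrel in which outer rings of alpha subunits gate the entrance and inner rings of beta subunits hold the cutting sites. A regulatory particle caps the barrel: the ATPases of its base unfold the substrate and push it in, other base subunits bind ubiquitin, and the lid removes the ubiquitin chain. Activators of the PSME family can take the place of the regulatory particle. Subunits are needed in fixed proportions, and their genes are known to be raised together by the transcription factor NFE2L1 when proteolysis is impaired. MXD3 belongs to the MYC, MAX and MXD family, whose members bind the E-box CACGTG, and MXD proteins oppose MYC at such sites.

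Because the plasmids carry a protein of this family, the promoters of the members were searched for the E-box. RefSeq promoter windows on GRCh38.p14, from 250 bases before to 50 bases after a gene's start, were matched for 30 of the 35 members, with 36 windows in all. No window was matched for PSMA7, PSMB1, PSMB6, PSMB7 and PSMD4. On both strands, CACGTG stood in 2 of the 36 windows (5.56%), against 7.26% of 35116 windows of the same length. The 2 belong to PSMB3, a non-catalytic beta subunit, and PSME3, the nuclear activator. Their 250 bases before the start are shown in the direction of transcription because they are the only members with that motif in these windows, with the E-box in capitals. PSMB3 spans chr17:38752491-38752740 and PSME3 spans chr17:42833147-42833396 on GRCh38.p14, both on the plus strand.
PSMB3: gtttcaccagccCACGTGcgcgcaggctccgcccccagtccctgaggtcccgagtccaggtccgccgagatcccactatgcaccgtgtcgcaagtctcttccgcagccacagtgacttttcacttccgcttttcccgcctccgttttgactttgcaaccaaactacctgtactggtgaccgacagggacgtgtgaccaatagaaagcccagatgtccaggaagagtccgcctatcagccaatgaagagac
PSME3: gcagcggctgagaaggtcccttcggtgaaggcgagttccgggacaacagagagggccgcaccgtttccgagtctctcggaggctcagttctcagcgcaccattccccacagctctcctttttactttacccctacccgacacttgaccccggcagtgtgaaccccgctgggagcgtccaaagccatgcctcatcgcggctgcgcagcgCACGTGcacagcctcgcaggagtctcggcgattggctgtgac
The first base of the E-box lies 238 bases before the start of PSMB3 and 42 bases before that of PSME3. TGACNNNGC, the core of the element bound by NFE2L1 and NFE2L2, stood in 10 member windows (27.8%, against 13.3% of all windows), those of PSMA4, PSMB3, PSMC4, PSMC5, PSMD1, PSMD3, PSMD12, PSME1, PSME2 and PSME4. CCAAT, the motif of the factor NF-Y, stood in 16 member windows (44.4%, against 34.6%). In the PSMB3 sequence shown, TGACNNNGC starts at base 147 and CCAAT at bases 196 and 238, and in the PSME3 sequence CCAAT starts at base 239, on either strand and counted from the first base printed. No printed match overlaps the E-box. A match of letters does not show that a factor binds there.

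Total counts were between 53048343 and 63835779 per library, and each member held between 1854 and 21234 counts in a library. A level is written in CPM, the usual counts-per-million unit after TMM scaling of library sizes. MXD3, the gene on 2 of the plasmids, was counted at 9.33 and 11.7 CPM in EV, 2523 and 2162 CPM in MXD3 and 1975 and 1849 CPM in STIM1::MXD3, and STIM1 at 204 and 176 CPM in EV, 187 and 159 CPM in MXD3 and 471 and 453 CPM in STIM1::MXD3, so both fit the labels. The 9 K562 markers examined were all detected and summed to between 6940 and 9720 CPM. The lymphoid, mature myeloid and stromal markers summed to at most 2.54, 2.61 and 2.90 CPM, MS4A1 and KRT5 were at 0, and EPCAM was at 77.9 to 100.5 CPM. Mitochondrial genes took 1.45% to 3.73% of the counts.

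Together, the 35 members took 0.493% and 0.526% of all counts in the EV libraries, 0.499% and 0.503% in MXD3, and 0.522% and 0.513% in STIM1::MXD3, so the MXD3 shares lay between those of EV. After TMM scaling their summed level was 5138 and 5182 CPM in EV, 4957 and 4892 CPM in MXD3, and 5434 and 4980 CPM in STIM1::MXD3. On that scale both MXD3 libraries were below both EV libraries, while the STIM1::MXD3 libraries lay on either side of them. The ratio of the summed CPM of the 14 core subunits to that of the 17 base and lid subunits was 0.858 and 0.825 in EV, 0.824 and 0.810 in MXD3, and 0.856 and 0.829 in STIM1::MXD3. In each group replicate 1 had the higher ratio, and the ranges of EV and STIM1::MXD3 overlapped.

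**Figure D1:**
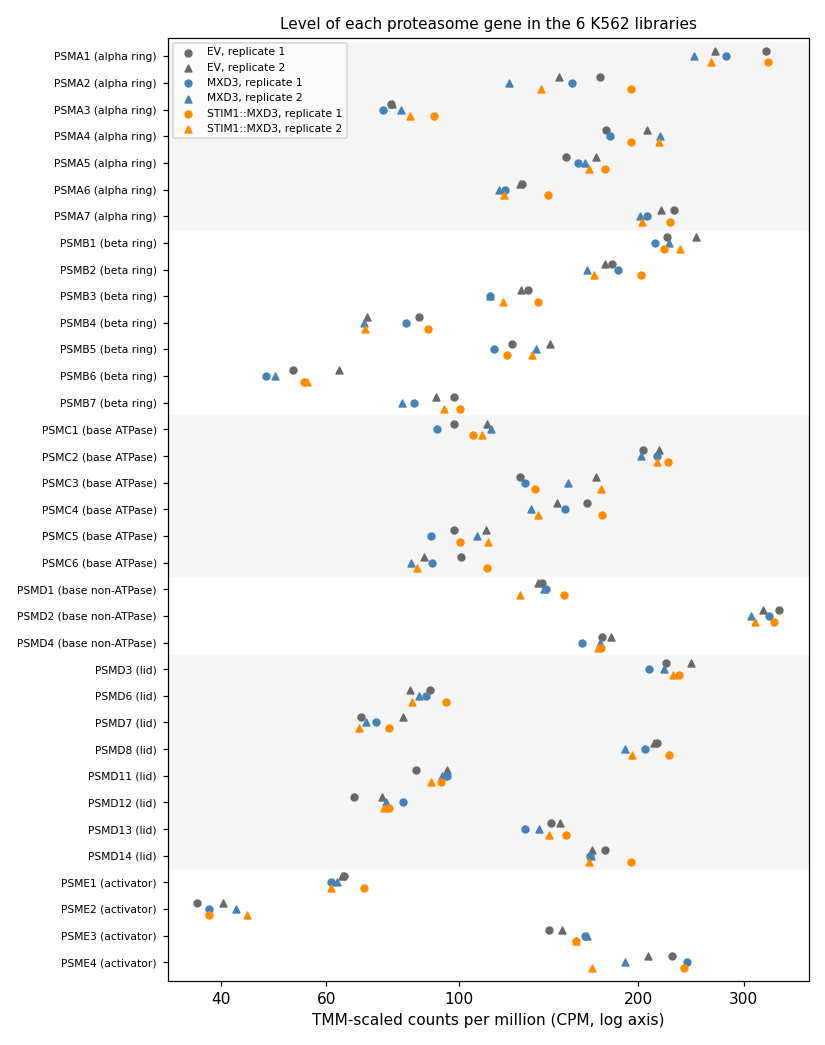
Level of each of the 35 genes in each library, as TMM-scaled CPM on a log axis, with 1 colour per plasmid, circles for replicate 1 and triangles for replicate 2; shaded and white bands separate the places in the complex. For 34 of the 35 genes the 6 points span less than 1.5-fold from the lowest to the highest library, and PSMA2 is the exception.

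To compare genes with each other, the EV mean was divided by the length of the canonical transcript in kilobases. The median member stood at 80.8 CPM per kilobase, and the members spanned 16.4-fold. PSMB1, a non-catalytic beta subunit, was highest at 265 ± 21.1 CPM per kilobase (SD, n = 2), with 223 and 249.6 CPM in EV, 213 and 225 CPM in MXD3 and 220.5 and 235 CPM in STIM1::MXD3 before division by length. The alpha subunits PSMA1, at 249 ± 34.4, and PSMA7, at 233 ± 8.23 CPM per kilobase, came next, and neighbours in this order did not differ beyond their SDs. PSMD12, a scaffold of the lid, was lowest at 16.2 ± 1.23 CPM per kilobase, followed by the lid subunit PSMD11 at 23.4 ± 2.01 and the base ATPase PSMC1 at 23.9 ± 2.15. PSMD11 and PSMC1 did not differ beyond their SDs.

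By place in the complex, the median per kilobase was 111.0 CPM for the 7 alpha subunits, 96.6 for the 7 beta subunits, 78.0 for the 6 base ATPases, 115.0 for the 3 other base subunits, 77.3 for the 8 lid subunits and 47.0 for the 4 activators. Each class except the activators had members both above and below the median of all 35. Within the beta ring, the catalytic subunits stood at 127 ± 13.3 (PSMB5, chymotrypsin-like), 70.1 ± 8.75 (PSMB6, caspase-like) and 96.6 ± 4.74 CPM per kilobase (PSMB7, trypsin-like). The order depended on the transcript length used. PSMA4, an alpha subunit, ranked 27 of 35 with its canonical transcript of 4378 bases and 4 of 35 with the median of its coding transcripts, 944 bases, an alternative chosen after seeing the data.

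**Figure D2:**
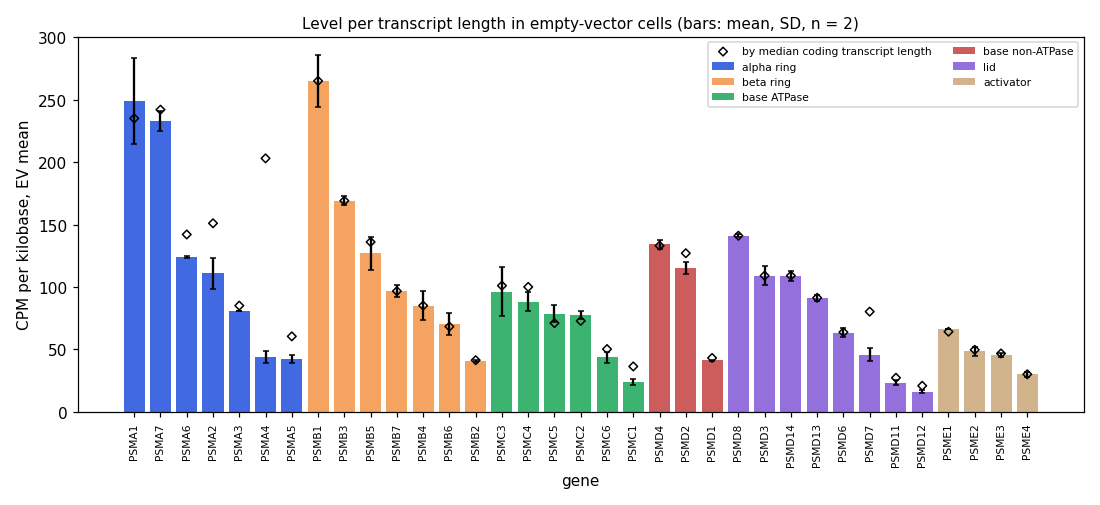
EV level of each gene in CPM per kilobase of canonical transcript, as the mean of 2 libraries with the SD, coloured by place in the complex; diamonds use the median length of the gene's coding transcripts instead. PSMB1, PSMA1 and PSMA7 stand highest, PSMD12 lowest, and PSMA4 moves most between the 2 lengths.

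Across the 6 libraries, the coefficient of variation of a member's CPM ran from 3.69% for PSMD4, a ubiquitin receptor of the base, to 16.8% for the alpha subunit PSMA2. It was above 10% for 8 members. PSMC1 shares 3157 exon bases with NRDE2 on the opposite strand, and PSMD1, PSMC5, PSME3, PSMC2, PSME4, PSMD6 and PSME2 share between 112 and 559 bases with other counted genes. Whether strand was used in counting is not stated, so reads in these stretches cannot be assigned with certainty. Reads of the 39 annotated pseudogenes of 15 members are uncertain in the same way, and none of those pseudogenes was counted as a gene of its own.

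STIM1::MXD3 was compared with EV to ask whether the fusion changes expression. No member passed the test. At an adjusted p under 0.05 in edgeR, 0 of 35 members were called, against 1 of 15431 genes tested (0.00648%), and 0 members had an unadjusted p under 0.05, against 0.953% of all genes. DESeq2 also called 0 members. The median log2 fold change of the members was 0.02, against 0.01 over all genes tested, with 22 members above 0 and 13 below (52.1% of all genes were above 0). With the replicate block and offsets for GC content and length the median was -0.01, with 13 members above 0. The values ran from -0.10 for PSME4 to 0.17 for PSMA3, and the 95% intervals of all 35 members lay within -0.58 and 0.55.

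The smallest p belonged to PSMA3, an alpha subunit at chr14:58711561-58738730 on GRCh37. It was counted at 77.0 and 77.3 CPM in EV, 74.6 and 80.1 CPM in MXD3 and 90.8 and 82.7 CPM in STIM1::MXD3. Both STIM1::MXD3 libraries lay above all others. Relative to EV the log2 fold change was 0.17 (SE 0.12, 95% interval -0.11 to 0.45), with adjusted p = 1 in edgeR.

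PSME3, the nuclear activator whose E-box promoter is printed above, was counted at 142 and 149 CPM in EV, 163 and 164 CPM in MXD3 and 157 and 157 CPM in STIM1::MXD3. Its log2 fold change for STIM1::MXD3 was 0.11 (SE 0.11, 95% interval -0.15 to 0.38), with adjusted p = 1 in edgeR, and both fusion libraries lay above both EV libraries. PSMD12, the lid scaffold with the lowest level per length, was counted at 66.8 and 74.4 CPM in EV, 80.5 and 75.7 CPM in MXD3 and 76.5 and 75.1 CPM in STIM1::MXD3. Its fusion libraries also lay above EV, by 0.10 (SE 0.12, 95% interval -0.18 to 0.39) on the log2 scale, with adjusted p = 1 in edgeR. With the replicate block, edgeR called 3 genes (0.0194%) and 0 members, and 0 members against 8.5% of genes had an unadjusted p under 0.05. PSMA3, PSME3 and PSMD12 were the members in which both fusion libraries exceeded both EV libraries (8.57% of members, against 12% of all genes), and PSMD4 was the 1 member lower in both (2.86%, against 10%). The members' shares were thus no larger than those of all genes.

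The replicates did not point the same way. The median member difference was 0.09 in the pair of libraries numbered 1 and -0.06 in the pair numbered 2. In both pairs 9 members were above 0 and 5 below, against 4190 and 3877 of 15431 genes tested. Leaving out STIM1::MXD3 replicate 1 gave a median of -0.05, and leaving out STIM1::MXD3 replicate 2 gave 0.07. For the alpha subunit PSMA2 the log2 fold change of 0.05 became -0.22 without STIM1::MXD3 replicate 1. PSMB4 (0.02) and PSMC6 (0.06) became -0.16 and -0.15 without that library. These fits had no replicate block, so the fusion library numbered 2 was then set against EV libraries of both numbers. In the pair numbered 2 alone, the differences of PSMA2, PSMB4 and PSMC6 were -0.10, -0.01 and -0.04.

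MXD3 was compared with EV to set the fusion beside its wild-type partner. Most members had lower values with MXD3, by small amounts, and none passed the test. At an adjusted p under 0.05 in edgeR, 0 of 35 members were called, against 1 of 15431 genes (0.00648%). No member had an unadjusted p under 0.05, against 1.86% of genes, and DESeq2 called 0 members. The median log2 fold change was -0.07, against 0.00 over all genes tested. Of the members, 26 were below 0 and 9 above (25.7% above, against 50.2% of all genes). With library totals only and no scaling factor the median was -0.03, with 13 above 0. Under that setting the median over all genes tested moved too, to 0.04. The 95% intervals of all 35 members lay within -0.70 and 0.46 on the log2 scale.

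The values are given next by place in the complex. The median log2 fold change was -0.10 for the alpha subunits, -0.11 for the beta subunits, -0.08 for the base ATPases, -0.06 for the 3 other base subunits, -0.06 for the lid and 0.03 for the activators. All 7 beta subunits and all 6 base ATPases were below 0, as were 4 of 7 alpha, 2 of 3 other base, 5 of 8 lid and 2 of 4 activator genes. No difference between these classes was tested. The medians of the library pairs numbered 1 and 2 were -0.07 and -0.08. In both pairs 20 members were below 0 and 5 above, against 4863 and 4719 of 15431 genes tested.

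The lowest value belonged to a catalytic subunit. PSMB6, which carries the caspase-like site and lies at chr17:4699439-4701797 on GRCh37, was counted at 52.7 and 62.9 CPM in EV, 47.5 and 49.2 CPM in MXD3 and 55.1 and 55.8 CPM in STIM1::MXD3. Both MXD3 libraries were below all 4 others. Relative to EV the log2 fold change was -0.26 (SE 0.14, 95% interval -0.58 to 0.06), with adjusted p = 0.999 in edgeR. PSMB7, with the trypsin-like site at chr9:127115744-127177723, was counted at 98.3 and 91.7 CPM in EV, 84.2 and 80.2 CPM in MXD3 and 100.4 and 94.4 CPM in STIM1::MXD3. Its MXD3 libraries were again the lowest of the 6, with a log2 fold change of -0.21 (SE 0.12, 95% interval -0.49 to 0.07) and adjusted p = 0.999 in edgeR. The alpha subunit PSMA2 had a log2 fold change of -0.21 (SE 0.21, 95% interval -0.70 to 0.28).

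PSMB5, the chymotrypsin-like subunit and the main target of proteasome inhibitor drugs, was counted at 123 and 142 CPM in EV, 115 and 135 CPM in MXD3 and 121 and 132 CPM in STIM1::MXD3. Its MXD3 and EV libraries overlapped, and replicate 2 was the higher in every group. The log2 fold change was -0.09 (SE 0.14, 95% interval -0.43 to 0.25), with adjusted p = 0.999 in edgeR. PSMB3, the non-catalytic beta subunit with the E-box in its promoter, was counted at 131 and 127 CPM in EV, 113 and 113 CPM in MXD3 and 136 and 119 CPM in STIM1::MXD3. Both MXD3 libraries were below the other 4, with -0.19 (SE 0.12, 95% interval -0.48 to 0.10) on the log2 scale and adjusted p = 0.999 in edgeR. PSME3, the other member with an E-box in the window, had the highest value of the 35, 0.17 (SE 0.11, 95% interval -0.10 to 0.43), with adjusted p = 0.999 in edgeR. The 2 E-box members therefore stood at opposite sides of 0, and neither passed the test.

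In 11 members both MXD3 libraries lay below both EV libraries (31.4%, against 14.8% of all genes): PSMA6, PSMA7, PSMB3, PSMB6, PSMB7, PSMD3, PSMD4, PSMD8, PSMD13, PSMD14 and PSME1. In 3 members, PSMD1, PSMD12 and PSME3, they lay above (8.57%, against 16.2%). With the replicate number as a block in edgeR, which removes what the same-numbered libraries share, the number of genes called was 45 (0.292%) and of members 0. An unadjusted p under 0.05 was then reached by 4 members, all lower (11.4%, against 6.99% of genes lower): PSMA2, PSMB3, PSMB6 and PSMB7. Of the 10250 genes averaging 5 CPM or more, as every member did, 925 were lower at that p, a larger share than over all genes. The blocked log2 fold change of PSMB6 was -0.25 (SE 0.10, 95% interval -0.46 to -0.05), with adjusted p = 0.258 in edgeR, and that of PSMB7 was -0.21 (SE 0.08, 95% interval -0.39 to -0.03), with adjusted p = 0.286. The smallest adjusted p of any member in that fit was 0.258.

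**Figure D3:**
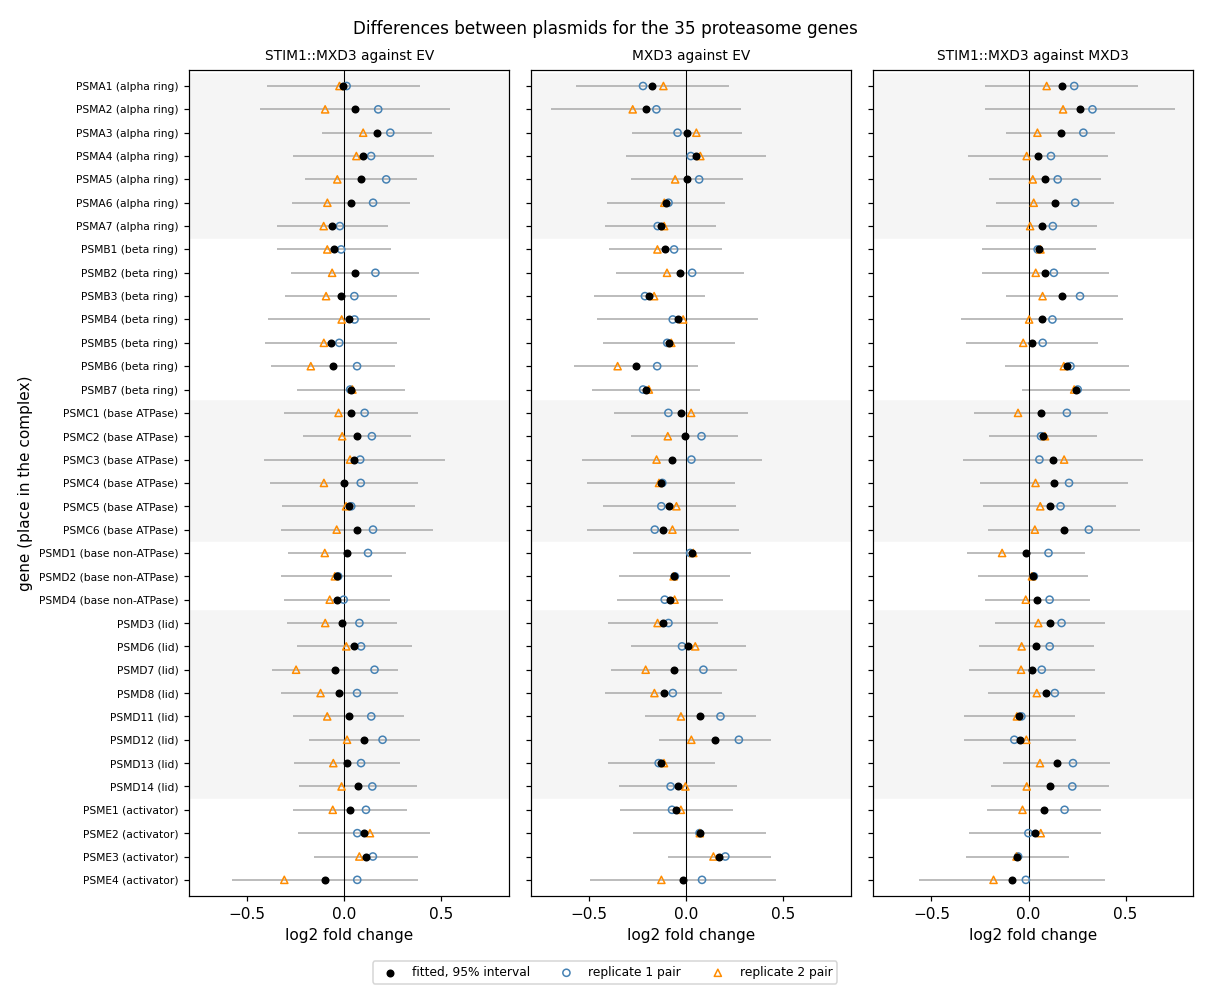
Log2 fold change of each of the 35 genes in the 3 plasmid comparisons, with black points for the edgeR fit without a block, grey lines for its 95% intervals, and open circles and triangles for the library pairs numbered 1 and 2. Every interval crosses 0; for MXD3 against EV 26 points lie below 0, and for STIM1::MXD3 against MXD3 30 lie above.

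The activators were not of 1 direction with MXD3. PSME1 and PSME2, which form the interferon-inducible activator, were counted at 64.3 and 63.8 CPM in EV, 61.0 and 62.5 CPM in MXD3 and 69.4 and 61.2 CPM in STIM1::MXD3 and at 36.4 and 40.3 CPM in EV, 38.1 and 42.3 CPM in MXD3 and 38.1 and 44.2 CPM in STIM1::MXD3. Their log2 fold changes against EV were -0.05 and 0.07 with MXD3, and 0.03 and 0.10 with STIM1::MXD3. PSME4, a nuclear activator linked to histone turnover, was counted at 228 and 207 CPM in EV, 241 and 189.6 CPM in MXD3 and 238 and 167 CPM in STIM1::MXD3. It differed more between replicate numbers than between plasmids, being lower in replicate 2 of every group, and its log2 fold change was -0.02 (SE 0.20, 95% interval -0.50 to 0.46) for MXD3 and -0.10 (SE 0.20, 95% interval -0.58 to 0.38) for STIM1::MXD3.

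The remaining members are given by their range over the 6 libraries. In the core, the alpha subunits PSMA5, PSMA6 and PSMA7 ran over 151 to 176, 117 to 141 and 202 to 229 CPM, and the beta subunit PSMB2 over 164 to 202 CPM. In the base, the ATPases PSMC1 and PSMC2 ran over 92.0 to 113 and 202 to 224 CPM, the scaffolds PSMD1 and PSMD2 over 127 to 150.2 and 309 to 344 CPM, and the ubiquitin receptor PSMD4 over 161 to 180.1 CPM. The log2 fold changes of PSMD4 against EV were -0.09 with MXD3 and -0.04 with STIM1::MXD3. In the lid, PSMD14, the deubiquitinase that frees the chain, ran over 165 to 194 CPM and its partner PSMD7 over 68.0 to 80.8 CPM. Against EV, PSMD14 had log2 fold changes of -0.04 with MXD3 and 0.07 with STIM1::MXD3, and PSMD7 of -0.07 with MXD3 and -0.05 with STIM1::MXD3. The other lid subunits PSMD3, PSMD6, PSMD8, PSMD11 and PSMD13 ran over 208 to 245, 83.0 to 95.2, 189.7 to 225, 84.7 to 95.7 and 129 to 151 CPM. None of these 16 members passed the test in any plasmid comparison.

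STIM1::MXD3 and MXD3 were also compared directly, and this comparison shares its libraries with the other 2. In edgeR 0 of 35 members were called, against 0 of 15431 genes (0%), and 0 members had an unadjusted p under 0.05, against 1.01% of genes. DESeq2 called 0 members. The median log2 fold change was 0.08, against 0.01 over all genes tested, and 30 members were above 0 and 5 below (85.7% above, against 52.1% of all genes). All 14 core subunits and all 6 base ATPases were above 0, and PSME4, PSME3, PSMD11, PSMD12 and PSMD1 were below. The 95% intervals of all 35 members lay within -0.56 and 0.76.

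PSMB7, PSMB6 and PSMB3, whose library values are given above, had the smallest p. Their log2 fold changes were 0.24 (SE 0.12, 95% interval -0.03 to 0.52), 0.20 (SE 0.14, 95% interval -0.12 to 0.52) and 0.17 (SE 0.12, 95% interval -0.12 to 0.46), with adjusted p = 1 for each in edgeR. In 7 members both fusion libraries exceeded both MXD3 libraries (20%, against 10.9% of all genes): PSMA3, PSMA5, PSMB3, PSMB6, PSMB7, PSMD3 and PSMD13. In 2, PSMD11 and PSME3, they lay below (5.71%, against 10.2%). The largest fitted value belonged to PSMA2, 0.26 (SE 0.21, 95% interval -0.23 to 0.76), but its libraries overlapped. With the replicate block in edgeR, 1 gene was called (0.00648%) and 0 members, and an unadjusted p under 0.05 was reached by PSMA2 and PSMB7, both higher (5.71%, against 3.21% of genes higher). Of the 10250 genes averaging 5 CPM or more, 377 were higher at that p.

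The size of these positive values differed between the library pairs. The median member difference was 0.13 in the pair numbered 1 and 0.03 in the pair numbered 2. In both pairs 21 members were above 0 and 4 below, against 4241 and 4026 of 15431 genes tested. Without STIM1::MXD3 replicate 1, in a fit with no replicate block, the median was 0.00, with 18 members above 0. Offsets for GC content and length together with the replicate block gave a median of 0.04, with 21 above 0.

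More members passed the test between the replicate numbers than between the plasmids, but these tests were not equally precise. The replicate test used all 6 libraries with the plasmid in the model, and the median SE of the members was 0.07. In each main plasmid comparison it was 0.13. In the edgeR fit with the replicate block, 10 of 35 members differed between replicates 2 and 1 at an adjusted p under 0.05 (28.6%), close to the share of all genes, 4499 of 15431 (29.2%). Of these, 4 were higher in replicate 2 (11.4%, against 13.1% of genes) and 6 lower (17.1%, against 16.1%). Among 10250 genes averaging 5 CPM or more, a level every member reached, 1593 were called higher and 2318 lower. That share was larger than among all genes or the members. Among all genes called, 44.9% were higher, or 61.7% with library totals only. What the replicate numbers stand for is not stated beyond separate transfections. All 10 members called had the same sign in all 3 plasmid groups. The test that called them used these same differences, so the shared sign is not separate support.

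The members higher in replicate 2 were PSMC3, PSMA4, PSMC5 and PSMB5. PSMC3, a base ATPase at chr11:47440320-47448024, was counted at 127 and 169.5 CPM in EV, 129 and 152 CPM in MXD3 and 134 and 173 CPM in STIM1::MXD3, with replicate 2 the higher in each group. Its log2 difference between replicates was 0.34 (SE 0.07, 95% interval 0.20 to 0.49), with adjusted p = 0.00159 in edgeR, the highest value among the members. PSMA4 was counted at 177 and 207 CPM in EV, 179 and 218 CPM in MXD3 and 194 and 216 CPM in STIM1::MXD3, a log2 difference of 0.22 (adjusted p = 0.0192, edgeR). The base ATPase PSMC5 was counted at 98.2 and 111 CPM in EV, 89.7 and 107 CPM in MXD3 and 101 and 112 CPM in STIM1::MXD3, a log2 difference of 0.20 (adjusted p = 0.0429, edgeR). In all 3 genes every replicate 2 library lay above every replicate 1 library. The catalytic PSMB5, given above, had a log2 difference of 0.19 (adjusted p = 0.0395, edgeR).

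The members lower in replicate 2 were PSMA2, PSME4, PSMB4, PSMA1, PSMC6 and PSMC4. PSMA2, at chr7:42956427-42971784, was counted at 172 and 147 CPM in EV, 155 and 121 CPM in MXD3 and 194 and 137 CPM in STIM1::MXD3. It had the lowest value of the members, -0.36 (SE 0.07, 95% interval -0.51 to -0.21), with adjusted p = 0.00146 in edgeR, and within the groups the difference was -0.23 in EV, -0.35 in MXD3 and -0.50 in STIM1::MXD3. PSME4 had a log2 difference of -0.33 (adjusted p = 0.00383, edgeR), with -0.14 in EV, -0.35 in MXD3 and -0.51 in STIM1::MXD3. In both genes the STIM1::MXD3 pair differed most and the EV pair least, and whether the groups differ in this was not tested.

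PSMB4, a non-catalytic beta subunit, was counted at 85.7 and 70.3 CPM in EV, 81.6 and 69.5 CPM in MXD3 and 88.9 and 69.6 CPM in STIM1::MXD3 and PSMA1 at 327 and 269 CPM in EV, 279.9 and 248 CPM in MXD3 and 329.5 and 264 CPM in STIM1::MXD3. Their log2 differences were -0.29 and -0.26, with adjusted p = 0.00662 and 0.0077 in edgeR. Both genes were lower in replicate 2 of each group. The base ATPases PSMC6, at 101 and 87.4 CPM in EV, 90.1 and 83.2 CPM in MXD3 and 112 and 85.0 CPM in STIM1::MXD3, and PSMC4, at 164 and 146 CPM in EV, 150.4 and 132 CPM in MXD3 and 174 and 136 CPM in STIM1::MXD3, had log2 differences of -0.24 and -0.24 (adjusted p = 0.0245 and 0.0161, edgeR).

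Among the 6 base ATPases, 2 were called higher and 2 lower, and among the 14 core subunits 2 higher and 3 lower. None of the 8 lid subunits was called. Of all genes tested, 13.1% were called higher and 16.1% lower, and no difference between these classes was tested. The fitted values of all 35 ran from -0.36 to 0.34 with a median of -0.02, and 9 members were higher and 14 lower in replicate 2 of all 3 groups, with 12 mixed. The median member difference was 0.01 in EV, -0.01 in MXD3 and -0.11 in STIM1::MXD3. Among genes averaging 5 CPM or more those medians were -0.02, -0.04 and -0.06. Across the 35 members the replicate difference had a Pearson r of 0.329 and a Spearman rho of 0.308 with the GC content of the transcript, and across 14176 genes r was 0.118 and rho 0.157. These correlations are across genes measured in the same libraries, and the part of GC content was not tested. With offsets for GC content and length, 10 members were again called, 9 of them the same, with PSMC6 replaced by PSMC1.

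The calls depended on the libraries used. Dropping either library of a group leaves the replicate difference to the pairs of the other groups. The fits with 1 library left out are therefore not separate checks of each other. With 1 library left out at a time, 6 to 9 members were called. The lowest count, 6, came from dropping either MXD3 library. PSMA1, PSMA2, PSMB4, PSMC3 and PSME4 were called in all 6 of those fits, and PSMA4, PSMB5, PSMC4, PSMC5 and PSMC6 were each lost in at least 2. DESeq2 called the same 10 members.

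**Figure D4:**
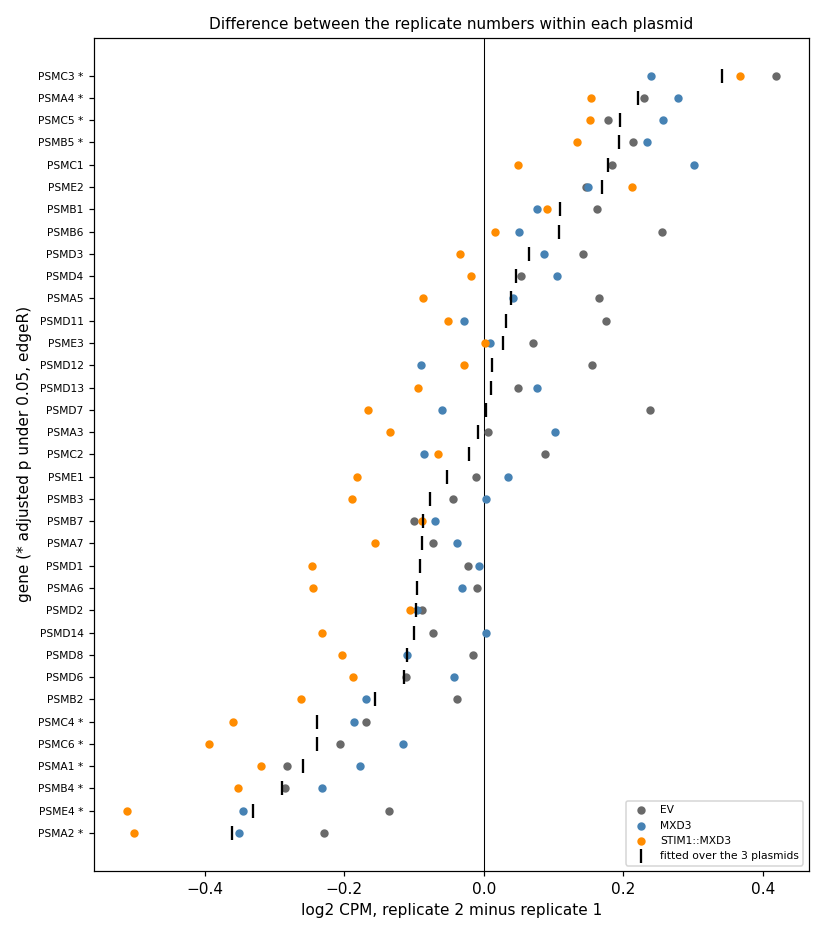
Difference in log2 CPM between replicate 2 and replicate 1 for each of the 35 genes, with 1 coloured point per plasmid and a black bar for the value fitted over all 3; genes are ordered by that value and asterisks mark an adjusted p under 0.05 in edgeR. The bars run from -0.36 for PSMA2 to 0.34 for PSMC3, and the 10 marked genes have all 3 points on 1 side of 0. The marks come from a test of these same differences.

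The wider pathway was described with a list of 40 other genes, of which 36 passed the filter on low counts: further core and regulatory subunits, assembly chaperones, inhibitors and associated proteins, regulators of subunit transcription, ubiquitin genes and their activating enzymes, and shuttle factors. None of the 36 was called in edgeR, with or without the replicate block, in any of the 3 plasmid comparisons, and without the block none had an unadjusted p under 0.05. The medians were 0.02 for STIM1::MXD3 against EV, -0.05 for MXD3 against EV and 0.05 for STIM1::MXD3 against MXD3, against 0.02, -0.07 and 0.08 for the members. With the block, an unadjusted p under 0.05 was reached in the same order by 1 gene higher and 2 lower (8.33%, against 8.5% of all genes in either direction), by 5 genes lower (13.9%, against 6.99% of all genes lower) and by 5 genes higher (13.9%, against 3.21% of all genes higher). Of the 10250 genes averaging 5 CPM or more, 925 were lower for MXD3 against EV and 377 higher for STIM1::MXD3 against MXD3.

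For STIM1::MXD3 against EV the smallest p belonged to DDI2, the protease that activates NFE2L1, with a log2 fold change of -0.27 (SE 0.15, 95% interval -0.62 to 0.09) and adjusted p = 1 in edgeR, and to UCHL5, a deubiquitinase of the regulatory particle, with 0.18 (SE 0.12, 95% interval -0.11 to 0.47) and adjusted p = 1. For MXD3 against EV it belonged to PSMF1, a proteasome inhibitor, with -0.20 (SE 0.14, 95% interval -0.53 to 0.12) and adjusted p = 0.999 in edgeR. For STIM1::MXD3 against MXD3 they were POMP, the chaperone that completes the core, with 0.19 (SE 0.12, 95% interval -0.09 to 0.47) and adjusted p = 1 in edgeR, and RPS27A, a ubiquitin fusion gene, with 0.23 (SE 0.16, 95% interval -0.15 to 0.60) and adjusted p = 1. In each of these 5 genes both libraries of 1 group lay beyond both of the other, and none passed the adjusted test.

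Between the replicates, 19 of the 36 were called in edgeR (52.8%, against 29.2% of all genes), 4 higher in replicate 2 and 15 lower. The 4 higher were PSMG4 (0.89) and PSMG3 (0.36), assembly chaperones, SEM1 (0.68), a small lid subunit, and NFE2L1 (0.36), the regulator of subunit transcription. PSMG4 was counted at 14.1 and 24.4 CPM in EV, 14.9 and 25.4 CPM in MXD3 and 13.1 and 28.5 CPM in STIM1::MXD3, and SEM1 at 52.8 and 91.5 CPM in EV, 54.2 and 83.0 CPM in MXD3 and 55.2 and 86.3 CPM in STIM1::MXD3. In both genes each replicate 2 library lay above every replicate 1 library. The lower genes included the ubiquitin shuttles UBQLN1 (-0.48), UBQLN2 (-0.33) and RAD23B (-0.26), and the ubiquitin-activating enzymes UBA6 (-0.29) and UBA1 (-0.20). RPS27A (-0.21) was lower too, with the regulators NFE2L2 (-0.23) and NGLY1 (-0.22), the assembly factors PSMG2 (-0.28) and PSMD10 (-0.20), and the associated proteins USP14 (-0.23), TXNL1 (-0.27) and ECPAS (-0.18).

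In immune cells and after interferon, PSMB8, PSMB9 and PSMB10 take the places of PSMB5, PSMB6 and PSMB7 in the core. PSMB10 was counted at 18.5 and 18.2 CPM in EV, 17.6 and 18.7 CPM in MXD3 and 18.2 and 19.8 CPM in STIM1::MXD3, and the groups overlapped. PSMB8 and PSMB9 were listed at 0 in all 6 libraries, where 3 counts would be 0.0467 to 0.0589 CPM. These zeros cannot be read as absence. Both genes lie in the stretch of chromosome 6 from HLA-F to KIFC1, where 50 of 138 protein-coding identifiers (36.2%) were at 0 in every library, against 140 of 847 (16.5%) on the rest of the chromosome. In that stretch RPS18, a ribosomal protein gene that every cell uses, had 27 to 69 counts, and the tubulin gene TUBB had 10 to 22. Some other genes there reached more counts and varied between libraries, such as BRD2 with 185 to 1672 and DDX39B with 11 to 431. These examples were picked after their values were seen. No member lies in that stretch, and PSMB1 is the 1 member on chromosome 6.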

How the data were processed

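Poly A RNA of K562 cells was sequenced as read pairs in 6 libraries, 2 for each of EV, MXD3 and STIM1::MXD3. The authors deposited raw counts, 1 table per library with NCBI Gene identifiers, without normalisation. The submitters' processing notes name HISAT2 2.2.1, featureCounts 2.0.1 and the hg19 build. The annotation, the use of strand and whether reads or pairs were counted are not given in the sources used here. Between 59.8% and 67.3% of counts from 1 to 39 were even. Of 25702 identifiers, 23696 (92.2%) were matched to a symbol.

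Genes were kept with filterByExpr (15431 genes), scaled with TMM and tested in R 4.3.3 by edgeR 4.0.16 (quasi-likelihood F test, two-sided) in 1 fit over all 6 libraries without covariates. The Benjamini-Hochberg adjustment covered all 15431 genes, and the threshold was 0.05. Intervals are at 95% and cover the spread between these libraries. With 2 libraries against 2, an exact permutation test cannot go below p = 0.333, so none was used. The study ranked genes by DESeq2 fold changes, and DESeq2 1.42.0 was run as an alternative.

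Groups and replicate numbers came from the labels. Libraries sharing a number deviated together from the means of their groups. Over all genes tested, r was 0.270 between EV and MXD3, 0.364 between EV and the fusion, and 0.450 between MXD3 and the fusion. Among the 10250 genes averaging 5 CPM or more, r was higher, at 0.621, 0.707 and 0.792 in the same order. Among the members it was 0.758, 0.855 and 0.866. The replicate numbers were therefore taken to pair the libraries. The main fit left this pairing out. A fit with the replicate number as a block was an alternative and gave the difference between replicates 2 and 1. The other alternatives were other size factors, other filters, counts divided by 2 and rounded up, the libraries of 1 comparison alone, offsets for GC content and length, and each library left out in turn. The edgeR fits were tested on simulated data with less spread than was estimated here and with larger planted changes than the members showed. That test therefore does not tell how the fits treat differences of the size seen here.

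Transcript lengths, GC content and gene positions came from the GRCh37 annotation, and promoters from RefSeq. The members, the list of other pathway genes and the markers were chosen with earlier results of these data known. All 35 members are named. Library values are given for the 3 catalytic beta subunits, the 4 activators, the 3 members with the smallest p in each plasmid comparison, members called in either edgeR fit, and the highest and lowest per kilobase in EV. Of the other pathway genes, those called are named, and otherwise the 2 with the smallest p, except that 2 genes are not reported here by name.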

Additional observations from a re-analysis of the deposited data

How the results depend on the processing

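In each of the 3 plasmid comparisons 0 of 35 members were called under all 16 other settings, the replicate block included, so the block changed no call of a member there. It moved the number of genes called. For STIM1::MXD3 against EV, 1 gene was called, and 2 with no filter on low counts, 3 with DESeq2, 3 with the replicate block, 19 with DESeq2 and the block, and 2 with the block and GC content and length offsets. For MXD3 against EV, 1 gene was called, and 3, 45, 238 and 11 with DESeq2, the block, DESeq2 with the block, and the block with offsets; leaving out 1 library at a time gave 1 to 2. For STIM1::MXD3 against MXD3, 0 genes were called, and 1 with no filter, 1 with DESeq2, 1 with the block, 5 with DESeq2 and the block, and 1 with the block and offsets.

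The median of the members for MXD3 against EV, -0.0661, was -0.0272 with library totals only and -0.0501 with the block and offsets, and ran from -0.0721 to -0.0504 with 1 library left out. The median over all genes tested was 0.0011 in the main fit and 0.0431 with library totals only. For STIM1::MXD3 against MXD3 the median ran from 0.0010 to 0.1212 with 1 library left out. For replicate 2 against replicate 1 the median was -0.0211, and 0.0502 with library totals only. Over all genes tested these medians were 0.0062 and 0.0771. Members called between the replicates numbered 6 to 9, and genes called 2580 to 4424, with 1 library left out. The lowest gene counts were 2580 and 2902, when replicate 1 or 2 of STIM1::MXD3 was dropped. Of 864 other values for single named members, 850 moved by less than 1 SD between replicates and 14 by more, all 14 with a library left out. The cause of these changes was not tested. With 2 libraries per group, no plasmid difference of a member passed the adjusted test at the sizes seen here.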
